A study of Mus musculus with 8 samples.

Results

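The Eya, sine oculis homeobox and Dach genes examined here are 8 rows of a table of 39017 Ensembl genes: the coactivators Eya1, Eya2, Eya3 and Eya4, the sine oculis homeobox genes Six4 and Six5, and the co-repressors Dach1 and Dach2. They were found by symbol in GENCODE release M21. The group was selected on earlier results of the same mutant to wild type contrast, in which Eya1 had been called lower. Differences of the 8 genes between the groups are therefore given as a description, and the calls among them are no independent evidence.

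RNA was measured in fluorescent cells sorted from the cochlear nucleus, the hindbrain relay of auditory input, of mouse embryos at E18.5. There were 4 mutant and 4 wild type libraries, each from 30000 cells of 3 pooled littermates with a separate mother. Mutant embryos carried Math1::Cre, a Rosa tdTomato reporter, and floxed Hoxa2 and Hoxb2, which encode transcription factors that pattern the hindbrain. Their titles give Hoxa2 as heterozygous (+/fl) and Hoxb2 as homozygous (fl/fl), whereas the series' design text gives both as homozygous, and nothing in the labels settles which holds. Wild type embryos carried Math1::Cre and the Rosa tdTomato reporter without floxed Hox alleles. All 8 pools had the C57BL/6 strain label. Cre under Math1 (Atoh1) marks and targets only cells with a history of that rhombic lip factor, so other cells of the nucleus keep both Hox genes. The libraries are named by group and by the running number in the column headings, mutant 1 to 4 and wild type 5 to 8.

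Eya proteins bind no DNA themselves. They are recruited by sine oculis homeodomain proteins, act as transcriptional coactivators and also carry a protein tyrosine phosphatase domain. Dach proteins are related to Ski and Sno and act with these homeodomain proteins mainly as co-repressors. The network is best known from the Drosophila eye and, in mouse, from cranial placodes, the inner ear, kidney and muscle.

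Total counts per library lay between 24789043 and 51118195, and a single gene, Gm42418, took between 8.35% and 15.1% of them. Of the targeted genes, Hoxb2 was at 6.81, 3.82, 3.77 and 5.67 CPM in mutant 1 to 4, against 37.4, 46.6, 37.5 and 38.9 CPM in wild type 5 to 8. Hoxa2 was at 19.9, 48.0, 11.1 and 27.8 CPM in mutant 1 to 4, against 30.8, 55.1, 49.2 and 37.7 CPM in wild type 5 to 8, so that its groups overlapped. CPM are counts scaled to a common library size with TMM factors. The list of Atoh1-lineage cochlear nucleus neurons, all 14 of whose genes were tested, summed to 1408 to 1784 CPM in mutant and 1676 to 1845 CPM in wild type libraries. Of these 14 genes Nhlh1 fell, 13 did not pass and 6 had a positive log2 fold change. By edgeR 5 of the 14 had an unadjusted p below 0.05, as did 2439 of all 19494 tested genes. After Nhlh1, the smallest p were those of Barhl2 and Calb2. Barhl2 averaged 69.5 CPM in mutant and 111 CPM in wild type libraries, and Calb2 23.9 and 11.4 CPM. Of 8 hair cell genes 4 were tested and none passed by edgeR, while 2 had an unadjusted p below 0.05: Myo7a averaged 12.5 CPM in mutant and 4.27 CPM in wild type libraries, and Myo6 27.1 and 44.7 CPM. The hair cell factors Pou4f3 and Gfi1 averaged at most 0.42 CPM in either group. Hoxb1, the neighbour of Hoxb2, averaged 85.9 ± 7.71 CPM in mutant and 0.241 ± 0.155 CPM in wild type libraries (SD, n = 4 each). Over 12 marker lists, 84 of 101 genes were tested and 4 passed by edgeR's quasi-likelihood test (adjusted p below 0.05), against 0.359% of all 19494 tested genes: Etv1 rose, and Nhlh1, Meis1 and C1qa fell. An unadjusted p below 0.05 was found for 23 of the 84, and 9 passed with DESeq2, 7 with voom using quality weights and 2 with plain limma-voom. Of all 19494 genes these tools called 497, 233 and 69, in that order. The call on Nhlh1 was kept in all 18 alternatives, whereas Etv1 lost it in 11, Meis1 in 6 and C1qa in 4, and C1qa was not tested under the filter of at least 1 CPM in 4 libraries. The summed level of each of the 12 lists overlapped between the groups, but a sum can rest on a single abundant gene. The microglia sum was mostly Csf1r, at 11.4 CPM in mutant and 10.9 CPM in wild type libraries, while the median log2 fold change of the 6 tested microglia genes was -1.65 and C1qa averaged 0.203 CPM in mutant and 2.36 CPM in wild type libraries. The 7 tested inhibitory neuron genes had a median of 0.68, with 6 positive and none past the threshold. Medians were -1.01 for the 5 tested placodal sensory neuron genes and -0.72 for the 6 tested mural and meningeal genes. None of these was positive and none passed, and the placodal list summed to at most 8.61 CPM in any library. The remaining marker lists had medians between -0.25 and 0.18. The part of these lists in the members' levels was not tested. Since these are bulk samples, fewer cells of a type and less RNA per cell cannot be told apart.

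Eya1 was the member with the clearest difference. Eya1 (ENSMUSG00000025932, mm10 chromosome 1, 14168954 to 14310235, minus strand), whose human counterpart is mutated in branchio-oto-renal syndrome, had 188, 116, 196 and 153 counts in mutant 1 to 4, against 486, 282, 437 and 541 counts in wild type 5 to 8. In CPM this was 6.16, 4.57, 3.81 and 4.13 in mutant 1 to 4, against 12.5, 11.0, 12.5 and 13.7 in wild type 5 to 8. The highest mutant library therefore stood well below the lowest wild type library. Means were 4.67 ± 1.04 CPM in mutant and 12.4 ± 1.11 CPM in wild type libraries (SD, n = 4 each), a ratio of 0.376 and a log2 fold change of -1.42 (SE 0.181).

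Eya1 fell past the threshold of the fit over all genes, an adjusted p below 0.05 in edgeR's quasi-likelihood test, and the other 7 members did not pass. In that fit 19494 genes were tested and 0.359% were called, 0.215% as lower and 0.144% as higher in mutants. The call on Eya1 is the result on which the group was assembled, and nothing is read from the share of members called. All 8 members were kept by the filter on low counts. Log2 fold changes were below 0 for 6 members and above 0 for 2, with a median of -0.41, against -0.01 over all tested genes. CPM ranges of the groups did not overlap for 3 of the 8, Eya1, Dach1 and Dach2, whereas 6.17% of all tested genes had such ranges. No exon of another GENCODE gene overlaps an exon of any member, and the small genes lying inside Eya1, Eya2, Eya4, Dach1 and Dach2 are intronic to them.

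**Figure D1:**
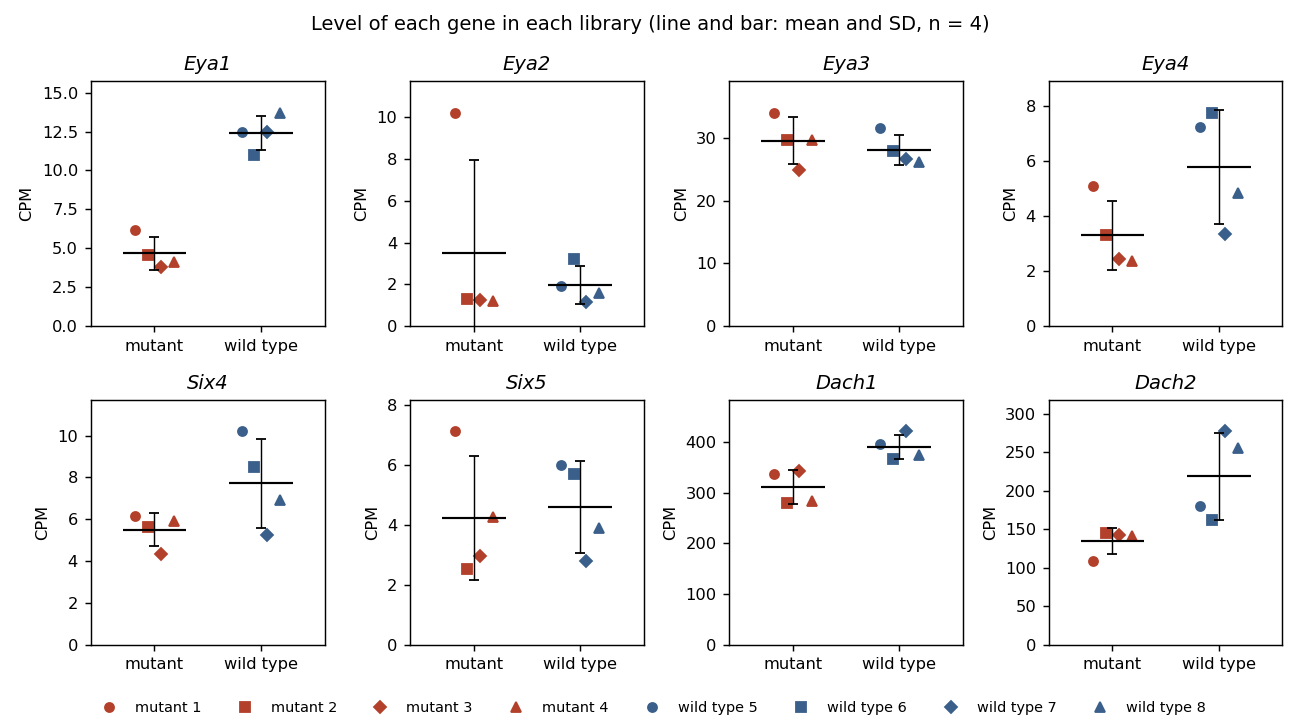
CPM (y axis, from 0) of the 8 genes in the 4 mutant libraries (left in each panel) and the 4 wild type libraries (right), 1 symbol per library, with the mean as a line and the SD as a bar (the bar of Eya2 in mutants is cut at 0). Eya1 separates the groups (3.81 to 6.16 CPM in mutant, 11.0 to 13.7 CPM in wild type), and Eya2 in mutant 1, at 10.2 CPM, stands apart from the other 7 libraries.

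None of the remaining Eya genes passed the threshold, and whether their differences differ from that of Eya1 was not tested. Eya3 (ENSMUSG00000028886, chromosome 4, 132638987 to 132724765), the most widely expressed of the family, was at 33.95, 29.6, 24.8 and 29.7 CPM in mutant 1 to 4, against 31.5, 27.9, 26.6 and 26.2 CPM in wild type 5 to 8. Its groups overlapped, and the log2 fold change was 0.07 (SE 0.125). Eya4 (ENSMUSG00000010461, chromosome 10, 23102963 to 23350786), a gene of inherited deafness in humans, was at 5.075, 3.31, 2.45 and 2.38 CPM in mutant 1 to 4, against 7.25, 7.75, 3.35 and 4.83 CPM in wild type 5 to 8. Mutant 2, mutant 3 and mutant 4 lay below every wild type library, mutant 1 lay above wild type 7 and wild type 8, and the log2 fold change was -0.82 (SE 0.314).

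Eya2 (ENSMUSG00000017897, chromosome 2, 165595032 to 165771727) was high in a single library. It had 312, 33, 63 and 45 counts in mutant 1 to 4, against 75, 83, 40 and 62 counts in wild type 5 to 8, or 10.2, 1.30, 1.22 and 1.22 CPM against 1.93, 3.23, 1.14 and 1.57 CPM. In mutant 1 the exact 95% Clopper-Pearson interval spanned 9.16 to 11.5 CPM without scaling factors. In mutant 2, which had the fewest Eya2 counts, it spanned 0.864 to 1.76 CPM. These intervals cover counting error only. The log2 fold change was 0.83 (SE 0.757) over all libraries and -0.64 without mutant 1, so its direction rests on that library.

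Among the Eya genes Eya1 therefore held a smaller share in mutants. Of the summed Eya RPKM (CPM per kilobase of the deposited gene length), Eya1 made up 11.7%, 13.9%, 13.9% and 13.2% in mutant 1 to 4, against 26.4%, 24.2%, 32.7% and 33.2% in wild type 5 to 8. Eya3 made up 65.7 ± 10.7% in mutant and 50.5 ± 2.77% in wild type libraries (SD, n = 4 each). The Eya1 share was lower in all 4 mutant libraries than in any wild type library, while the Eya3 share overlapped through mutant 1, where Eya2 took 28.5%. The sum of the 4 Eya genes was 12.1, 7.51, 6.26 and 7.17 RPKM in mutant 1 to 4, against 10.8, 10.4, 8.76 and 9.45 RPKM in wild type 5 to 8, lower in every mutant library but mutant 1.

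**Figure D2:**
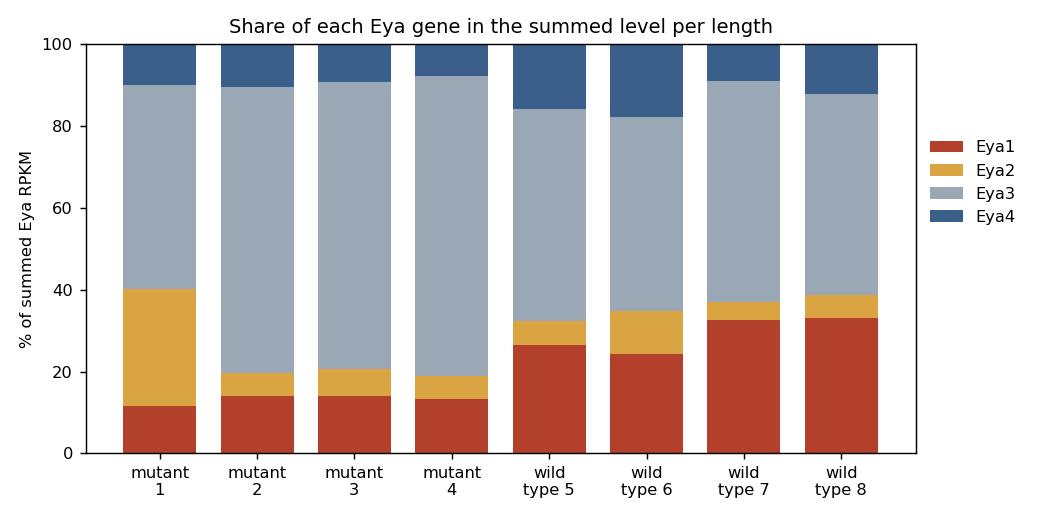
Share of each Eya gene in the summed Eya RPKM (y axis, percent, from 0 to 100) in each library, mutant 1 to 4 at the left and wild type 5 to 8 at the right. The Eya1 segment covers 11.7% to 13.9% in mutant and 24.2% to 33.2% in wild type libraries.

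The sine oculis proteins supply the DNA contact of the network, and Six4 and Six5 were the members of that family with appreciable counts. Six4 (ENSMUSG00000034460, chromosome 12, 73099609 to 73113456) was at 6.16, 5.63, 4.33 and 5.91 CPM in mutant 1 to 4, against 10.2, 8.49, 5.26 and 6.91 CPM in wild type 5 to 8. Only wild type 7 reached into the mutant range, and the log2 fold change was -0.49 (SE 0.219). Six5 (ENSMUSG00000040841, chromosome 7, 19094594 to 19098549), which lies 0.773 kb from the myotonic dystrophy kinase gene Dmpk, was at 7.10, 2.52, 2.95 and 4.27 CPM in mutant 1 to 4, against 5.99, 5.69, 2.77 and 3.90 CPM in wild type 5 to 8. Mutant 1 was the highest of all 8 libraries and mutant 2 the lowest, and the log2 fold change was -0.12 (SE 0.341).

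Six2, Six3 and Six6 were near the limit of detection in both groups. Six3, a regulator of forebrain and eye development, had 2, 7, 27 and 18 counts in mutant 1 to 4, against 17, 23, 5 and 9 counts in wild type 5 to 8. Six2, Six3 and Six6 reached at most 0.200 RPKM in any library, whereas Six4 was at 0.783 ± 0.116 RPKM in mutant and 1.10 ± 0.301 RPKM in wild type libraries (SD, n = 4 each). Among Six2, Six3 and Six6, Six3 alone was kept for testing, with a log2 fold change of -0.24 (SE 0.653).

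The Dach genes had the highest levels of the group. Dach1 (ENSMUSG00000055639, chromosome 14, 97786853 to 98169765) was at 337, 281, 344 and 284 CPM in mutant 1 to 4, against 397, 368, 422 and 376 CPM in wild type 5 to 8. Every mutant library was below every wild type library, by a log2 fold change of -0.33 (SE 0.108). Dach2 (ENSMUSG00000025592, chromosome X, 113297510 to 113836386) was at 109, 145, 142 and 141 CPM in mutant 1 to 4, against 179.5, 162, 277 and 256 CPM in wild type 5 to 8. Its groups did not overlap either, and the log2 fold change was -0.70 (SE 0.173). Neither passed over all genes, with an edgeR adjusted p of 0.259 for Dach1 and 0.127 for Dach2. Dach2 made up 24.3 ± 3.81% of the summed Dach RPKM in mutant and 29.0 ± 4.78% in wild type libraries (SD, n = 4 each), shares whose ranges overlapped.

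The promoters of the Dach genes are shown because Dach1 and Dach2 were the pair within a family that was lower in all mutant libraries. Each is 300 bases of RefSeq sequence around an annotated start (GRCm38.p6, the assembly of mm10), written 5′ to 3′ on the gene's strand. Capitals mark matches, on either strand, to the letters TGATNNAT, which Hox-Pbx pairs can bind, or TGACAG, which Meis proteins can bind.
Dach1, chr14:98169716-98170015, minus strand: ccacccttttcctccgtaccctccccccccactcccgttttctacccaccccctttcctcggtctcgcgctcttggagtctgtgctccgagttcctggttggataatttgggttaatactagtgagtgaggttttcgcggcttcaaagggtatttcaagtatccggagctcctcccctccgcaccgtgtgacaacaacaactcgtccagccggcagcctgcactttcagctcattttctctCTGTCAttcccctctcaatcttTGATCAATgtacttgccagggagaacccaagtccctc
Dach2, chrX:113297260-113297559, plus strand: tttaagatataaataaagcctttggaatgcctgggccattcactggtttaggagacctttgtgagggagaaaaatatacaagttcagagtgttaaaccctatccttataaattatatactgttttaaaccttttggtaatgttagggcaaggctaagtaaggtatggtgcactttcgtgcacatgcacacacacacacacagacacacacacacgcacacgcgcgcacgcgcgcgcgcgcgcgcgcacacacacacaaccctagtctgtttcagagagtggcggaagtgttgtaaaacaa
The Dach1 window held both motifs, which did not overlap each other, and this Dach2 window held neither. A second Dach2 window, chrX:113298006-113298305, is not printed and also held neither. Of 32851 RefSeq promoters of this length, 8.85% held TGATNNAT and 19.2% held TGACAG. The table had 9 promoters for 6 of the members, with none for Eya1 or Eya2. TGATNNAT occurred in 1 of the 9 (Dach1), TGACAG in 2 (Dach1 and Six5), and TCAGGTTNC, a form of the site bound by sine oculis proteins, in 1 (Six4), against 1.22% of all promoters. These matches describe letters in a window and are not evidence of binding.

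**Figure D3:**
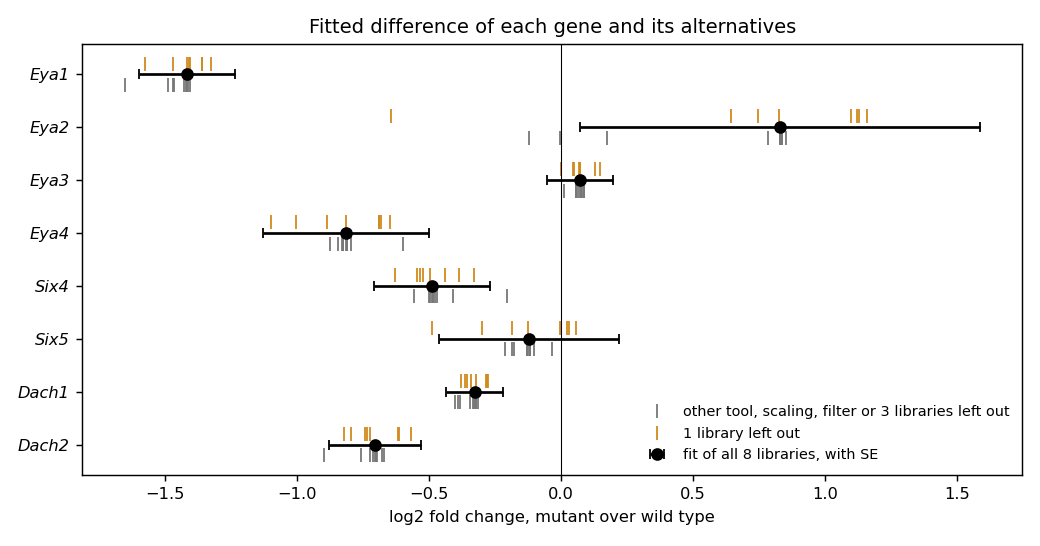
Log2 fold change of mutant over wild type (x axis) for the 8 genes. Black points with bars are the fit of 8 libraries with its SE, orange ticks leave out 1 library each and grey ticks are the other alternatives. Eya1 lies between -1.65 and -1.33 in all alternatives, while Eya2 crosses 0.

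Levels can be set side by side only per length. In wild type libraries the order was Dach1 at 53.4 ± 3.30 RPKM, Dach2 at 22.1 ± 5.70, Eya3 at 4.97 ± 0.430, Eya1 at 2.84 ± 0.254, Six5 at 1.53 ± 0.505, Eya4 at 1.38 ± 0.494, Six4 at 1.10 ± 0.301 and Eya2 at 0.664 ± 0.304 RPKM (SD, n = 4 each). The ranges over the 4 libraries separated Dach1, Dach2, Eya3, Eya1 and Six5 from each other. Six5 and Eya4, Eya4 and Six4, and Six4 and Eya2 overlapped in their ranges over libraries, although within each of the 4 wild type libraries the first of each pair was higher. Dach1 stood above 96.0% of tested genes by wild type RPKM, and Eya1 above 43.3%.

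In mutant libraries Eya1, at 1.07 ± 0.238 RPKM (SD, n = 4), no longer stood above Six5, at 1.40 ± 0.687 RPKM. Eya1 exceeded Six5 in 1 of 4 mutant libraries and in 4 of 4 wild type libraries. The log2 ratio of Eya3 to Eya1 levels was 2.31 ± 0.157 in mutant and 0.81 ± 0.200 in wild type libraries (SD, n = 4 each).

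**Figure D4:**
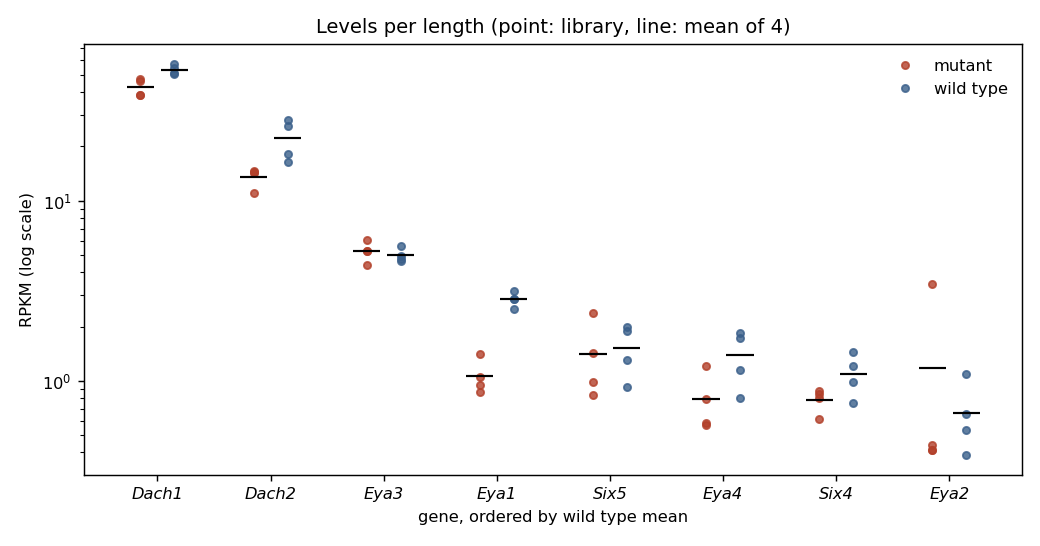
RPKM on a log axis (y) for each gene, ordered by the wild type mean (x), with 1 point per library, mutant left of wild type, and a line at the mean of 4. Dach1 and Dach2 lie above 10 RPKM in all 8 libraries, and Eya1 is at 0.871 to 1.41 RPKM in mutant and 2.51 to 3.13 RPKM in wild type libraries.

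Several members also varied between libraries of the same genotype. Wild type 5 and wild type 6 were higher than wild type 7 and wild type 8 for Eya2, Eya3, Eya4, Six4 and Six5, and lower for Dach2. Mutant 1 was the highest mutant library for Eya1, Eya2, Eya3, Eya4, Six4 and Six5 and the lowest for Dach2. These 3 libraries also had the highest summed level of the 7 listed Schwann cell genes, 27.7 CPM in mutant 1, 27.3 in wild type 5 and 24.5 in wild type 6, against 12.6 to 21.8 CPM in the others. Most of that sum was Pmp22, and 4 of the 7 genes, Foxd3 among them, were below 1 CPM in every library. Sox10 of that list did not follow, at 0.393 CPM in mutant 1 and highest in wild type 7, at 1.40 CPM. Genes of other lists were highest in the same 3 libraries too. Atoh1 was at 134, 89.1 and 154 CPM in them, against 28.5 to 59.3 CPM in the others. Olig2 was at 24.4, 38.4 and 36.4 CPM, against 8.83 to 15.4 CPM. The summed astrocyte and radial glia list was at 874 CPM in mutant 1, against 411 to 646 CPM in the other mutants, and at 654 to 924 CPM in wild type libraries. The part of any of these in the members' levels was not tested. Without mutant 1, wild type 5 and wild type 6 the Eya1 log2 fold change was -1.65, that of Dach1 -0.39 and that of Dach2 -0.90.

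The wider pathway was read from 2 fixed lists, and by edgeR none of 43 tested genes passed, where 4 had an unadjusted p below 0.05, as did 2439 of all 19494 tested genes. DESeq2 called 1, Fgf10, against 497 of all 19494 genes. Limma-voom called 0 with quality weights, against 233 of all genes, and 0 without them, against 69. Of 25 partners and co-factors, all tested, 6 had a positive log2 fold change, and the median was -0.07, against -0.01 over all tested genes. The smallest p were those of Pax3, a paired box factor that acts with sine oculis and Eya proteins in muscle precursors, at -0.70 (SE 0.371), and of Pax2, which acts with them in the kidney, at 0.62 (SE 0.348). Pax3 was at 101, 50.7, 50.2 and 45.0 CPM in mutant 1 to 4, against 152, 125, 58.3 and 67.1 CPM in wild type 5 to 8, so it was highest in the same 3 libraries as Eya4 within each group.

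Of 26 genes reported in other tissues as targets of sine oculis and Eya proteins, 18 were tested, 4 had a positive log2 fold change and the median was -0.25. The smallest p were those of Fgf10, a growth factor of ear and lung buds, and of Ret, the GDNF receptor kinase. Fgf10 was at 0.851, 3.58, 2.72 and 2.94 CPM in mutant 1 to 4, against 0.565, 0.973, 0.772 and 0.785 CPM in wild type 5 to 8. It was high in 3 mutant libraries, while mutant 1 lay within the wild type range, and the fitted difference was 1.71 on the log2 scale (SE 0.396), with an adjusted p of 0.102 by edgeR. Ret was at 8.51, 13.3, 11.3 and 9.99 CPM in mutant 1 to 4, against 6.84, 9.27, 6.46 and 6.50 CPM in wild type 5 to 8. The groups overlapped through wild type 6, and the fitted difference was 0.57 on the log2 scale (SE 0.186), with an adjusted p of 0.256 by edgeR.

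The genes whose profile over the 8 libraries was nearest to that of Eya1 were Calml4, Clrn1, Col8a1, Hotairm1 and Slit2. Likeness was the root mean square difference between log2 CPM profiles, each centred on its own mean, computed for 11928 genes with a symbol that is not provisional whose log2 CPM averaged 1 or more. It was 0.201 for Calml4, a calmodulin-like protein, 0.238 for Clrn1, an Usher syndrome gene of hair cells, 0.262 for the collagen Col8a1, 0.272 for the noncoding Hotairm1 of the Hoxa cluster, and 0.279 for the guidance ligand Slit2, with a median of 0.768 over all those genes. Clrn1 was at 1.96, 2.01, 2.21 and 1.65 CPM in mutant 1 to 4, against 5.19, 4.98, 4.58 and 6.50 CPM in wild type 5 to 8. All 5 were lower in every mutant library than in any wild type library, whereas ranges did not overlap for 6.17% of all tested genes. By edgeR Calml4, Clrn1 and Col8a1 passed, the last at an adjusted p of 0.0489. Hotairm1 (0.0622) and Slit2 (0.0982) did not. Each of the passing genes lost its call in some alternatives, and Hotairm1 and Slit2 passed in some. The likeness uses the same contrast, so these differences are a description. Calml4, Hotairm1 and Slit2 overlap other tested genes, and the counting is not stated to use strand.

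**Figure D5:**
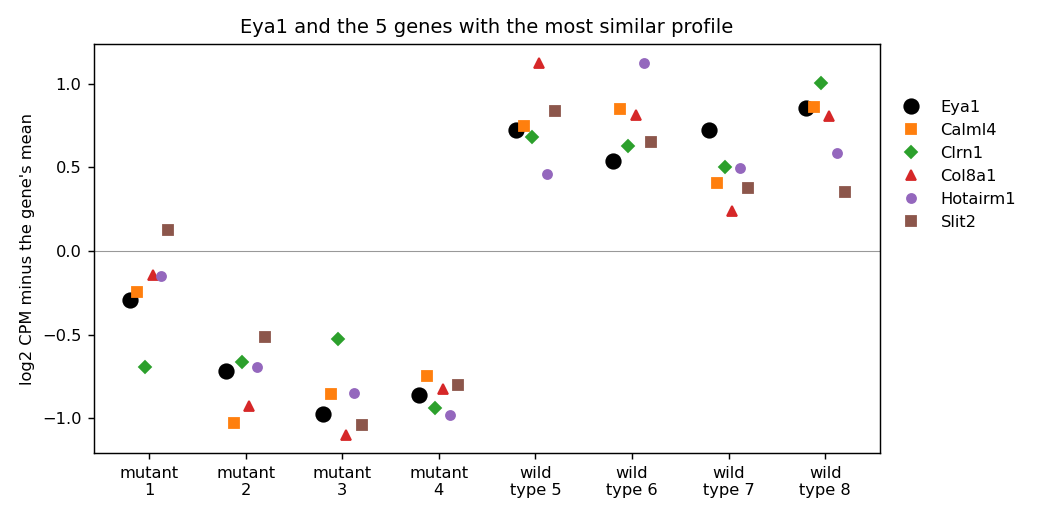
Log2 CPM minus each gene's mean over the 8 libraries (y axis) for Eya1 (large black points) and the 5 genes with the most similar profile, by library (x axis), mutants at the left. Eya1 runs from -0.98 to -0.29 in mutant and from 0.54 to 0.86 in wild type libraries.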

How the data were processed

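RNA-seq libraries of 2 ng total RNA were made with poly-A plus random primers and 14 PCR cycles, per the labels' protocols. The authors deposited raw read counts per Ensembl gene and a gene length, named width in the header. Per the submitters' processing notes, bcl2fastq 1.8.4 was used and mm10 was the genome build. The aligner, counting program, annotation release and strand handling are not given in the sources used here. Column headings show the group but not the replicate number of the titles.

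Counts were tested in R 4.3.3 with edgeR 4.0.16 (filterByExpr, TMM, robust quasi-likelihood F test, Benjamini-Hochberg adjusted p below 0.05 over 19494 genes), mutant against wild type, without covariates. The SE was taken as |log2 fold change| over the root of F. Log2 CPM used a prior count of 2. DESeq2 1.42.0 and limma 3.58.1 (voom), other scalings and filters, and libraries left out served as alternatives. The fit was tested on simulated data. Symbols matched 37607 of 39017 IDs. Members, gene lists (sine oculis homeobox genes, partners, targets, 12 marker lists) and tests were chosen with earlier results of these data known. Genes named were all members, Six2, Six3 and Six6, Hoxa2, Hoxb2 and Hoxb1, marker genes past the threshold, the 2 of smallest p in each pathway list, and the 5 nearest to Eya1. Barhl2, Calb2, Pou4f3, Gfi1, Myo7a, Myo6, Csf1r, Pmp22, Foxd3, Sox10, Atoh1 and Olig2 were added after their values were seen. Some genes under these rules are not reported here. Between libraries, chi-square per gene was at least 16.5, so none were counted as 1 sample. That lowest value was between mutant 1 and wild type 6, libraries of different groups. The highest, 101, was between mutant 3 and mutant 4. Chi-square on counts grows with depth, and mutant 3 had the most counts (51118195) and wild type 6 the fewest (24789043). These 2 pairs therefore cannot show whether likeness between libraries followed genotype.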

Additional observations from a re-analysis of the deposited data

Results flagged for a closer look

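In the 24 group values examined for the 8 members and related homeobox genes, 2 single libraries stood apart from the other 3 of their group by Dixon's criterion, which flags about 1 in 20 groups by chance. Eya2 was at 10.2 CPM in mutant 1, against 1.22 to 1.30 CPM in the other mutants. Dach2 was at 109 CPM in mutant 1, against 141 to 145 CPM in the other mutants. Over all 19494 tested genes mutant 1 stood apart on the high side in 299 and on the low side in 173, against 67 to 313 and 44 to 131 genes for each of the other mutants. The part of that library's state in either value was not tested.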

How the results depend on the processing

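Eya1 kept its direction and its call in all 18 alternatives, with a log2 fold change between -1.65 and -1.33. Eya4, Six4, Dach1 and Dach2 kept their direction in all 18. Dach2 also passed with DESeq2 (-0.70, adjusted p = 0.0162) and with mutant 1, wild type 5 and wild type 6 all left out (-0.90, adjusted p = 0.00835), where 2 members were called in each case, within a range of adjusted p from 0.00835 to 0.308 over its alternatives. Leaving out any single library left 1 member called. With 1 library left out, Eya2 ran from -0.64 to 1.16, Eya3 from -0.00063 to 0.15 and Six5 from -0.49 to 0.057. Eya2 turned to -0.64 without mutant 1, to -0.12 without those 3 libraries and to -0.0029 with limma-voom with quality weights. Eya3 turned to -0.00063 without mutant 1. Six5 turned to 0.057 without mutant 2, 0.023 without mutant 3 and 0.032 without wild type 5. The cause was not tested in any of these. The number of genes called, 70 in the main fit, was 214 with no filter on low counts, 497 with DESeq2, 233 with limma-voom with quality weights and 171 without the 3 libraries, and ran from 26 to 544 with 1 library left out, the highest without mutant 1. Among partners and reported targets 1 gene, Fgf10, was called with no filter, with DESeq2 and without the 3 libraries. With 1 library left out the number ran from 0 to 2, the highest without mutant 1, with Fgf10 among them. With scaling by library size only, all genes had a median of -0.07 on the log2 scale, and the 5 genes nearest to Eya1 were in the same order. No paired analysis was possible because the column headings do not carry the replicate numbers of the sample titles. Six2 and Six6 had too few counts to be tested.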
